A study of Sus scrofa with 6 samples.

Results

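Slow-twitch contractile genes and the tropomyosin gene TPM3 were followed in the back muscle longissimus dorsi. The 9 genes were MYH7, MYL2, MYL3, TNNT1, TNNI1, TNNC1, ATP2A2, PLN and TPM3. They were chosen by name, with earlier results of these data known. In the platform annotation 15 of the 23999 probe sets compared carried exactly 1 of these symbols, at least 1 for each gene. Expression was measured in 3 Large White boars, the control breed, and in 3 boars of a Northeastern Indigenous breed. All 6 animals were slaughtered at 150 days after sharing feed and housing, and each gave 1 Affymetrix Porcine Genome Array. Nothing in the labels relates the animals to each other, and their number limits the precision.

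Slow-twitch fibres are the fatigue-resistant, oxidative fibres of skeletal muscle, and they carry their own versions of the contractile proteins. The pig longissimus is known as a mainly fast-twitch muscle in which slow fibres are a minority. TPM3 encodes the tropomyosin of slow fibres, which lies along the actin filament and gates myosin binding. The same gene also makes shorter cytoplasmic tropomyosins through another promoter and other exons, and these are found in many cell types outside muscle.

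The arrays were not alike within the Large White breed. Of the 10 defining skeletal muscle markers fixed as a check of the tissue, 9 were measured, and none was listed at 0. On Large White replicate 1 their median stood at -3.23 log2 units from the Northeastern Indigenous mean, against -0.01 on replicate 2 and -0.17 on replicate 3. Of 10 adipocyte markers, 7 were measured and none was listed at 0. Their median lay at 3.70, -0.12 and 2.42 on Large White replicates 1, 2 and 3. The summed deposited intensity of the adipocyte markers ran from 5271 to 42312 in Large White and from 5598 to 8297 in Northeastern Indigenous boars. The sum of the muscle markers ran from 40094 to 317562 and from 272628 to 275061. The main results are therefore given by array, and the differences also without the arrays concerned. In whole tissue, fewer fibres of a type and less RNA per fibre cannot be told apart.

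The slow-fibre genes were bright on every array except Large White replicate 1. All 8, each read by its brightest probe set, had a higher mean in Northeastern Indigenous boars, against 55.8% of all probe sets tested. They were higher by 1.26 to 2.50 log2 units, and none passed the test. All 9 measured skeletal muscle markers were higher too, with a median difference of 1.21. The brightest TPM3 probe set went the other way, at -1.45 ± 0.41 (SE). Another TPM3 probe set had the opposite sign, at 1.88 ± 0.52 (SE). None of the 15 probe sets had an adjusted p under 0.05 in limma (Benjamini-Hochberg, over 14399 probe sets), where 0% of all probe sets did. At an unadjusted p under 0.05 there were 5 of 15, against 18.8% of all probe sets tested. They were the 3 TPM3 probe sets and 2 dim ones of ATP2A2, and the brightest probe set of no slow-fibre gene was among them. In the same 5 the breeds did not overlap, against 25.1% of all probe sets tested.

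**Figure D1:**
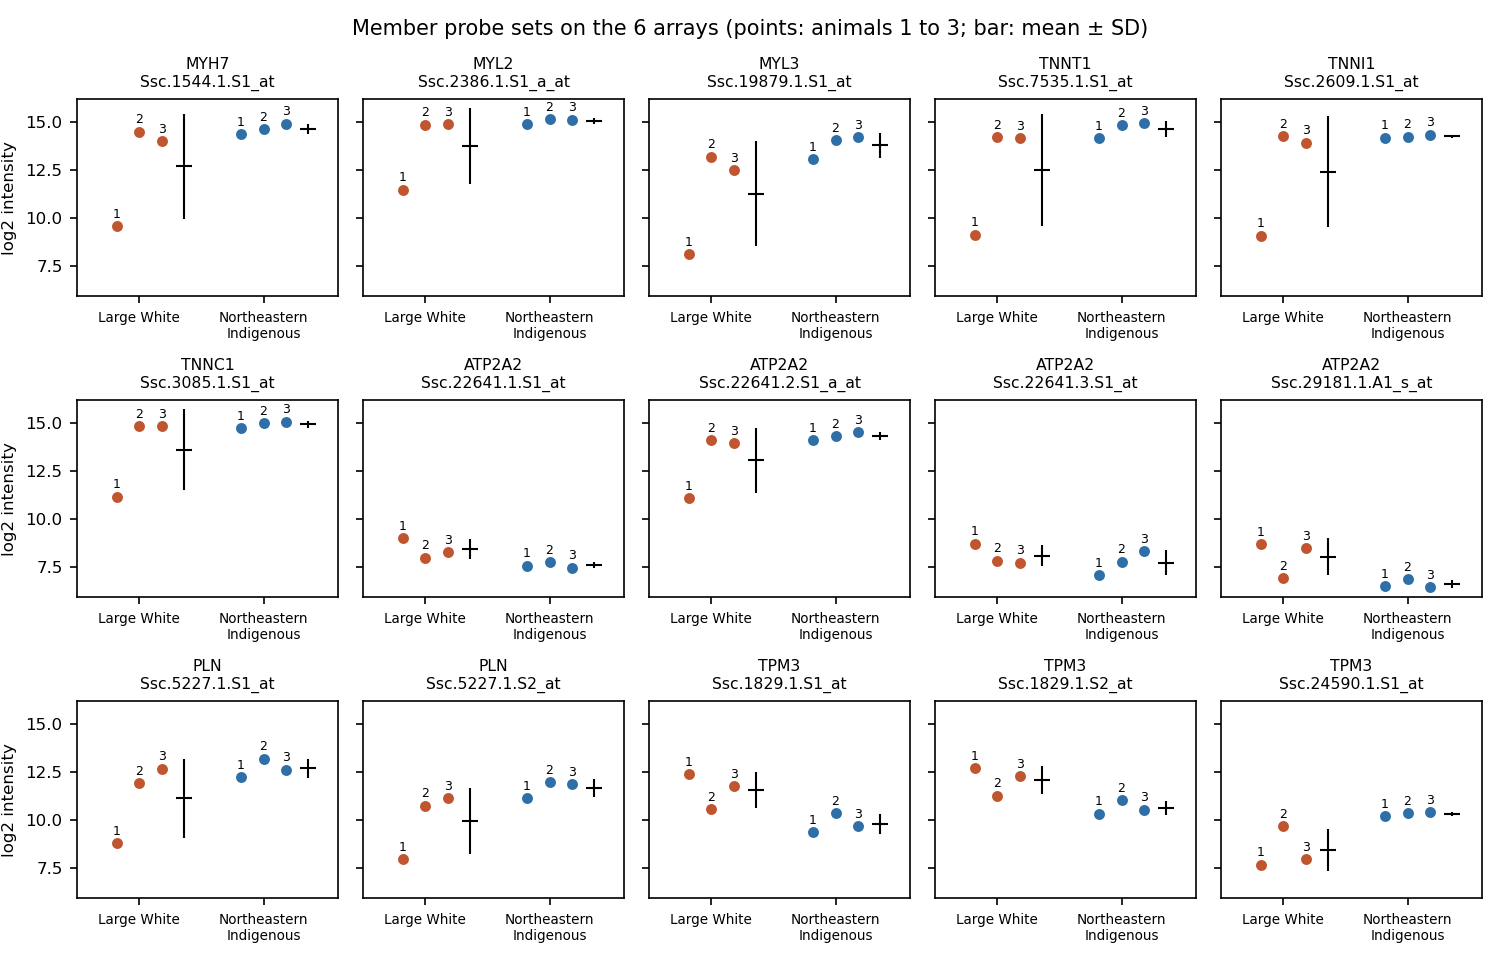
Log2 intensity after quantile normalization of the 15 probe sets, 1 panel each, with the 3 animals of each breed as numbered points and the mean ± SD beside them. Large White replicate 1 sits alone at the bottom in MYH7, MYL2, MYL3, TNNT1, TNNI1, TNNC1 and PLN, and at the top in the first and second TPM3 panels.

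Of the thick filament, MYH7 is the slow myosin heavy chain, the motor protein. It read 9.57, 14.50 and 14.01 log2 units on Large White replicates 1, 2 and 3, and 14.37, 14.64 and 14.91 on Northeastern Indigenous replicates 1, 2 and 3. One Large White animal was far below all the others, and the breeds overlapped. The difference, Northeastern Indigenous minus Large White, was 1.95 ± 1.19 (SE; 14.64 ± 0.27 against 12.69 ± 2.72, SD, n = 3 per breed; adjusted p = 0.36 in limma). On the deposited scale MYH7 ranged from 851 to 30785 within Large White, a 36.2-fold span, and spanned 1.41-fold in Northeastern Indigenous boars.

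MYL2, the slow regulatory myosin light chain, read 11.48, 14.86 and 14.90 in the Large White animals and 14.88, 15.15 and 15.12 in the Northeastern Indigenous ones. It again had 1 low animal and overlapping breeds, and differed by 1.30 ± 0.86 (SE; adjusted p = 0.39 in limma). Near the top of the scale quantile normalization leaves little room to differ. As deposited, MYL2 was 40419 on Large White replicate 2 and 23446 on replicate 3. MYL3, the slow essential light chain, read 8.13, 13.20 and 12.51 against 13.05, 14.06 and 14.21. Northeastern Indigenous replicate 1 was lower than the others of its breed and lay below Large White replicate 2. This also held for MYH7, TNNT1, TNNI1, TNNC1 and the brightest ATP2A2 probe set. The difference of MYL3 was the largest among the 8 slow-fibre genes, at 2.50 ± 1.23 (SE; adjusted p = 0.30 in limma).

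The troponin complex makes the thin filament respond to calcium, and its slow subunits followed the myosin genes. TNNT1, the subunit that binds tropomyosin, read 9.14, 14.22 and 14.17 in Large White and 14.16, 14.84 and 14.93 in Northeastern Indigenous boars. TNNI1, the inhibitory subunit, read 9.09, 14.26 and 13.92 against 14.18, 14.24 and 14.34. TNNC1, the calcium-binding subunit that slow and heart muscle share, read 11.16, 14.84 and 14.84 against 14.74, 14.99 and 15.07. In each of the 3 the same Large White animal was low and the breeds overlapped. Their differences were 2.13 ± 1.28 for TNNT1, 1.83 ± 1.26 for TNNI1 and 1.32 ± 0.93 for TNNC1 (SE; adjusted p from 0.36 to 0.41 in limma). The equal TNNC1 readings on Large White replicates 2 and 3 were 40012 and 22555 as deposited, again near the top of the scale.

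The calcium-handling members had more than 1 probe set each. ATP2A2 encodes the calcium pump of the sarcoplasmic reticulum in slow and heart muscle, and a differently spliced form serves the endoplasmic reticulum of most cells. Its brightest probe set, Ssc.22641.2.S1_a_at, read 11.08, 14.10 and 13.97 in Large White and 14.10, 14.30 and 14.54 in Northeastern Indigenous boars, a difference of 1.26 ± 0.76 (SE; adjusted p = 0.36 in limma). The other 3 ATP2A2 probe sets were dim, between 6.47 and 9.02 on all arrays, and had differences of the opposite sign. Ssc.29181.1.A1_s_at read 8.69, 6.93 and 8.47 against 6.52, 6.87 and 6.47, so that all Large White animals were above all Northeastern Indigenous ones, replicate 2 by a margin of 0.06. It differed by -1.41 ± 0.48 (SE; unadjusted p = 0.022, adjusted p = 0.23 in limma), and the breeds overlapped in the values as deposited. In the maker's naming the suffix of this probe set marks probes that can match transcripts of more than 1 gene. Ssc.22641.1.S1_at differed by -0.83 ± 0.32 and Ssc.22641.3.S1_at by -0.36 ± 0.42 (SE; adjusted p = 0.25 and 0.61 in limma).

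Within ATP2A2 the contrast lay mostly on 1 array. Relative to the brightest probe set on the same array, and set to 0 at the Northeastern Indigenous mean, Ssc.29181.1.A1_s_at stood at 5.30, 0.52 and 2.20 on Large White replicates 1, 2 and 3. For Ssc.22641.1.S1_at these values were 4.64, 0.60 and 1.03. On every Large White array both were above the Northeastern Indigenous values, which ran from -0.38 to 0.26 (two-sided exact permutation test, p = 0.1 for each, 3 animals a breed, where 0.1 is the smallest p possible). Both already separated the breeds alone, while the brightest probe set had the opposite sign, so these are no separate results. Ssc.22641.3.S1_at stood at 4.21, 0.30 and 0.35 and overlapped with the Northeastern Indigenous arrays (two-sided exact permutation test, p = 0.3). All 4 are annotated to the same transcript record, and which transcript end each one reads is not given in the sources used here.

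PLN encodes phospholamban, the small membrane protein that restrains the ATP2A2 pump. Its brighter probe set read 8.81, 11.92 and 12.68 in Large White and 12.24, 13.20 and 12.63 in Northeastern Indigenous boars. It was lower on Large White replicate 2 than on replicate 3, at -0.77 and -0.01 from the Northeastern Indigenous mean. The dimmer PLN probe set gave the same order, at -0.91 and -0.53. As deposited, the values were -0.83 and -0.28 for the brighter and -0.97 and -0.55 for the dimmer. Each of the other 7 slow-fibre genes was higher on replicate 2 than on replicate 3 on that scale. The PLN differences were 1.55 ± 0.93 and 1.71 ± 0.80 (SE; adjusted p = 0.36 and 0.29 in limma).

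The slow-fibre genes were unevenly low on Large White replicate 1. Its distance from the Northeastern Indigenous mean was -5.65 for MYL3, -5.51 for TNNT1, -5.16 for TNNI1 and -5.07 for MYH7. It was -3.88 for PLN, -3.77 for TNNC1, -3.56 for MYL2 and -3.23 for ATP2A2. All 8 genes lay below the Northeastern Indigenous range there under the 3 scalings run. Large White replicate 2 was within that range for 6 of the 8 genes and below it for PLN and MYL2. As deposited it was below for 1 gene, within for 5 and above for 2, so its side of the mean depends on the scaling. Large White replicate 3 was below the range for 4 genes, MYH7, MYL3, TNNI1 and ATP2A2, but for 7 as deposited and for all 8 with arrays centred on their medians.

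Without Large White replicate 1 the differences of the 8 genes shrank to between 0.11 for TNNC1 and 0.96 for MYL3, and their median from 1.69 to 0.34. All 8 stayed positive, against 56.5% of all probe sets tested. So did all 9 measured skeletal muscle markers, whose median difference went from 1.21 to 0.10. The median over all 14399 probe sets was 0.10 with every array and 0.08 without that one. Without Large White replicates 1 and 3 together the median of the 8 was 0.22, with 7 of 8 positive and TNNI1 at -0.00014. Over all probe sets tested, 49.6% were then positive. The skeletal muscle markers then had a median of 0.02, with 5 of 9 positive.

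**Figure D2:**
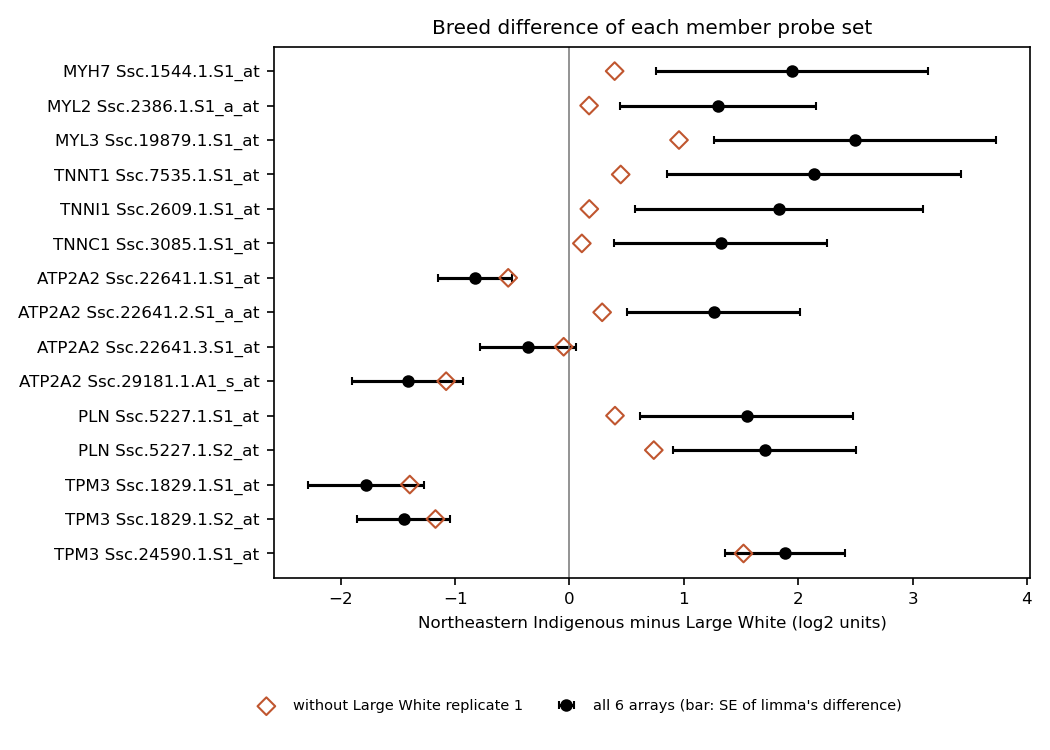
Northeastern Indigenous minus Large White difference of each probe set in log2 units, with filled circles and SE bars for all 6 arrays and open diamonds without Large White replicate 1. The diamonds of the slow-fibre genes move towards 0, to between 0.11 and 0.96 for the brightest probe sets, while the 3 TPM3 probe sets stay at -1.40, -1.17 and 1.52.

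The Large White spread of these genes was wide beside the rest of the array. Over the 8 slow-fibre genes the SD was 1.71 to 2.92 in Large White and 0.08 to 0.63 in Northeastern Indigenous boars. Over all probe sets tested the median SD was 0.49 and 0.27. TNNI1 had the smallest Northeastern Indigenous SD of the 8, at 0.08, and MYL3 the largest. Within that breed replicate 1 was the lowest in all 8 genes, at -0.07 to -0.72 from the breed mean, which also held with the values as deposited. With arrays centred on their medians TNNI1 was lower on replicate 2.

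The slow-fibre genes were set against the fast-fibre ones, of which 8 of 15 listed were measured. The mean of the 8 slow-fibre genes lay at -4.48, -0.30 and -0.41 on Large White replicates 1, 2 and 3, and that of the fast-fibre genes at -2.44, 0.05 and -0.23. The slow minus fast value was -2.04, -0.35 and -0.18 there, and -0.36, 0.14 and 0.21 on the Northeastern Indigenous arrays. Large White replicate 1 alone was outside the Northeastern Indigenous range. As deposited it stood at -1.64 against -0.39 to 0.23, and replicate 2 was then just outside, at -0.41. Against the skeletal muscle markers, some of which are also on the fast-fibre list, the contrast was smaller. Slow minus muscle marker mean was -1.37, -0.28 and -0.03 on Large White replicates 1, 2 and 3. It was -0.31, 0.21 and 0.09 on the Northeastern Indigenous arrays. The named fast-fibre genes were MYL1 (0.20 ± 0.18), TPM1 (0.66 ± 0.51), MYLPF (0.46 ± 0.35) and MYH2 (0.60 ± 0.50, SE of the breed difference), which encode 2 light chains, a tropomyosin and a myosin heavy chain. None of the 8 passed at an adjusted or an unadjusted p under 0.05 in limma, and their median difference was 0.63, with all 8 positive, against 55.8% positive over all probe sets tested. It was 0.02 without Large White replicate 1, and the 4 named genes lay between -0.04 and 0.01. These 4 read 15.09 to 15.36 on the other arrays, near the top of the scale, where quantile normalization leaves little room to differ. As deposited, the fast-fibre mean stood at -2.88, 0.26 and -0.79 on Large White replicates 1, 2 and 3. The slow-fibre mean was then at -4.52, -0.15 and -0.87. Without replicates 1 and 3 together the fast-fibre median was -0.02, with 2 of 8 positive, against 49.6% of all probe sets tested.

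In 2 of its 3 probe sets TPM3 differed with the opposite sign from the other slow-fibre genes. The brightest, Ssc.1829.1.S2_at, read 12.69, 11.26 and 12.28 log2 units on Large White replicates 1, 2 and 3, and 10.33, 11.02 and 10.54 on Northeastern Indigenous replicates 1, 2 and 3. Ssc.1829.1.S1_at read 12.40, 10.57 and 11.77 against 9.38, 10.37 and 9.67. In both, every Large White animal was above every Northeastern Indigenous one, replicates 1 and 3 by over 1 log2 unit and replicate 2 by 0.24 and 0.21 respectively. Among all probe sets tested, 10.9% had no overlap in this direction. The differences were -1.45 ± 0.41 (SE; 10.63 ± 0.36 against 12.08 ± 0.74, SD, n = 3 per breed) and -1.78 ± 0.51 (SE), with an adjusted p of 0.22 for each in limma (unadjusted p = 0.0090 and 0.0097).

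The third TPM3 probe set, Ssc.24590.1.S1_at, had the opposite sign to both. It read 7.69, 9.69 and 7.97 in Large White and 10.22, 10.37 and 10.41 in Northeastern Indigenous boars. Every Large White animal was below every Northeastern Indigenous one, and the latter spanned 0.20 log2 units. In this direction 14.2% of all probe sets tested had no overlap. The difference was 1.88 ± 0.52 (SE; 10.33 ± 0.10 against 8.45 ± 1.08, SD, n = 3 per breed; unadjusted p = 0.0084, adjusted p = 0.22 in limma). The platform annotation ties this probe set to a different source sequence from the one shared by the other TPM3 probe sets, and which TPM3 transcript each reads was not tested.

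Relative to Ssc.1829.1.S2_at on the same array, the third probe set stood at -4.70, -1.28 and -4.01 on the Large White arrays, and at 0.18, -0.36 and 0.17 on the Northeastern Indigenous ones (two-sided exact permutation test, p = 0.1). Both probe sets separated the breeds alone, in opposite directions, so this outcome was fixed in advance and is no further result. Ssc.1829.1.S1_at relative to Ssc.1829.1.S2_at stood at 0.53, 0.13 and 0.31 against -0.12, 0.17 and -0.04, and the breeds overlapped. The 3 probe sets kept their directions and their lack of overlap between breeds as deposited and with arrays centred on their medians. Without Large White replicate 2 all 3 were called by limma (adjusted p = 0.0091, 0.0084 and 0.0045), as were 2 dim ATP2A2 probe sets. That made 5 of 15, in a fit that called 30.7% of all probe sets. Without Large White replicate 1 the TPM3 differences were -1.17 and -1.40 for the first 2 probe sets and 1.52 for the third. Without replicates 1 and 3 together they were -0.67, -0.80 and 0.68, values that rest on 1 Large White array and are given with no test.

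**Figure D3:**
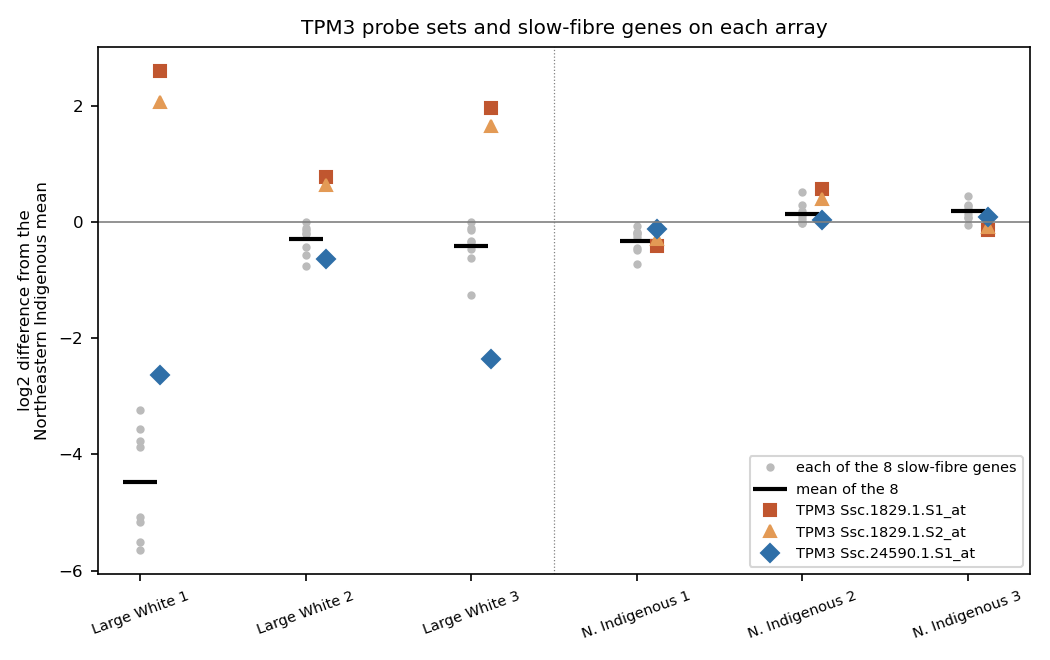
Log2 difference of each array from the Northeastern Indigenous mean, for the 8 slow-fibre genes (grey points, their mean as a black bar) and the 3 TPM3 probe sets (coloured markers). On Large White replicates 1 and 3 the first 2 TPM3 probe sets are high, at 1.65 to 2.60, and the third is low, at -2.64 and -2.36, while the slow-fibre mean is at -4.48 on replicate 1 and -0.41 on replicate 3 (-0.87 as deposited).

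Set against the mean of the 8 slow-fibre genes on the same array, the brightest TPM3 probe set stood at 6.54, 0.93 and 2.06 on Large White replicates 1, 2 and 3. On the Northeastern Indigenous arrays it stood at 0.02, 0.25 and -0.27. The breed means of this value differed by -3.18 log2 units, Northeastern Indigenous minus Large White, and by -3.21 with the values as deposited. The value was -1.54 without Large White replicate 1, and -1.99 with each gene read by the mean of all its probe sets. All Large White arrays were above all Northeastern Indigenous ones. Taken singly against each of the 8 genes, the differences ran from -3.95 for MYL3 to -2.71 for ATP2A2, and the breeds did not overlap in any of the 8 pairs (two-sided exact permutation test, p = 0.1 for each of the 8, again the smallest p possible). All 8 pairs share the brightest TPM3 probe set, which separated the breeds alone, so they are not 8 separate results. With Ssc.24590.1.S1_at in place of the brightest probe set, the value against the mean of the 8 genes was 1.84, -0.35 and -1.95 on the Large White arrays. These spread to both sides of the Northeastern Indigenous range of -0.11 to 0.21. This probe set was thus low on Large White replicate 3, where the slow-fibre mean stood at -0.41 (-0.87 as deposited).

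Among the other tropomyosins, TPM4 had the sign of the brightest TPM3 probe set and TPM2 that of the slow-fibre genes. TPM4, a cytoplasmic tropomyosin of non-muscle cells, was named after its values were seen. It read 13.75, 11.24 and 12.98 in Large White and 10.83, 11.17 and 10.34 in Northeastern Indigenous boars, a difference of -1.88 ± 0.62 (SE; unadjusted p = 0.019, adjusted p = 0.23 in limma). A second TPM4 probe set differed by -1.42 ± 0.65 and the breeds overlapped there. TPM2, a tropomyosin of both fibre types, read 11.08, 14.78 and 14.04 against 14.49, 14.51 and 14.86, a difference of 1.32 ± 0.86. The difference was 0.21 for TPM2 and -1.36 for TPM4 without Large White replicate 1. The low animal of TPM2 was Large White replicate 1, as in the slow-fibre genes. TPM1 had 3 probe sets with differences of 0.66, 0.20 and -0.42, none past the test.

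Of the list of tropomyosins and thin filament genes, 10 of 12 were measured, 9 had a positive difference, against 55.8% of all probe sets tested, and the median was 1.11. The median was 0.08 without Large White replicate 1, with 6 of 10 positive, and without replicates 1 and 3 together it was -0.16, with 2 of 10 positive. Over all probe sets tested the positive shares were 56.5% and 49.6%, respectively. NEB, the giant protein that spans the thin filament, differed by 1.05 ± 0.76 and CAPZA2, a filament capping subunit, by 0.20 ± 0.15 (SE), and without Large White replicate 1 by 0.06 and 0.10. Of the non-muscle actin cytoskeleton list, 11 of 15 genes were measured and 10 tested. Of these 8 had a negative difference, where 55.8% of all probe sets tested had a positive one, with a list median of -0.85. The median was -0.64 without Large White replicate 1 and -0.23 without replicates 1 and 3 together, with 9 of 10 negative in each. At an unadjusted p under 0.05 there were 4, TPM4, CNN3, MYL6 and VIM, all negative. Among all probe sets 9.97% were so in that direction. VIM, the intermediate filament of mesenchymal cells, differed by -1.40 ± 0.53, and MYL6, the non-muscle essential light chain, by -1.43 ± 0.56. Without Large White replicate 1 these were -1.05 and -0.96, and without replicates 1 and 3 together -0.13 and -0.12. The actins ACTB (-0.32 ± 0.30) and ACTG1 (0.36 ± 0.30, SE) had smaller differences of opposite sign, at -0.57 and -0.0030 without Large White replicate 1. No gene of either list had an adjusted p under 0.05 in limma.

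Fibroblast, leukocyte and adipocyte markers were high on Large White replicates 1 and 3, where the brightest probe set of TPM3 was highest. Endothelial and smooth muscle markers were not. Where its brightest probe set stood at 2.06, 0.63 and 1.65 on Large White replicates 1, 2 and 3, the non-muscle actin list stood at 1.32, 0.12 and 0.99. The fibroblast markers, 7 of 8 measured, were at 2.07, 0.56 and 1.55, and the leukocyte markers, 7 of 9 measured, at 2.31, 0.92 and 2.23. On Northeastern Indigenous replicate 2, where TPM3 was highest in its breed at 0.39, these lists stood at 0.39, 0.30 and 0.62. On replicates 1 and 3 the order differed, with TPM3 lowest on replicate 1, at -0.30 against -0.09, and the 3 lists lowest on replicate 3, at -0.33, -0.22 and -0.39. The adipocyte list, high on Large White replicates 1 and 3, was at -0.12 on replicate 2, where TPM3 was at 0.63. On Large White replicates 1, 2 and 3 the endothelial list stood at -0.97, -0.02 and -0.22. The smooth muscle list stood at -0.96, -0.58 and -0.31 there, and the blood list at 0.15, -0.20 and 0.58. Summed fibroblast intensity ran from 44613 to 81887 in Large White and from 25451 to 37877 in Northeastern Indigenous boars. The leukocyte sum ran from 6032 to 17763 and from 1321 to 2814. No marker of either list was listed at 0, and their part in the TPM3 result was not tested. Endothelial (5 of 5 measured), smooth muscle (3 of 5), blood (2 of 3) and cardiac (4 of 5) markers had median differences of 0.31, 0.62, -0.18 and 2.35 over the 4, 3, 2 and 1 tested. The cardiac value is TNNI3, the heart troponin, named after its values were seen and at 1.06 without Large White replicate 1, and NPPA, NPPB and TNNT2 were too dim to be tested.

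**Figure D4:**
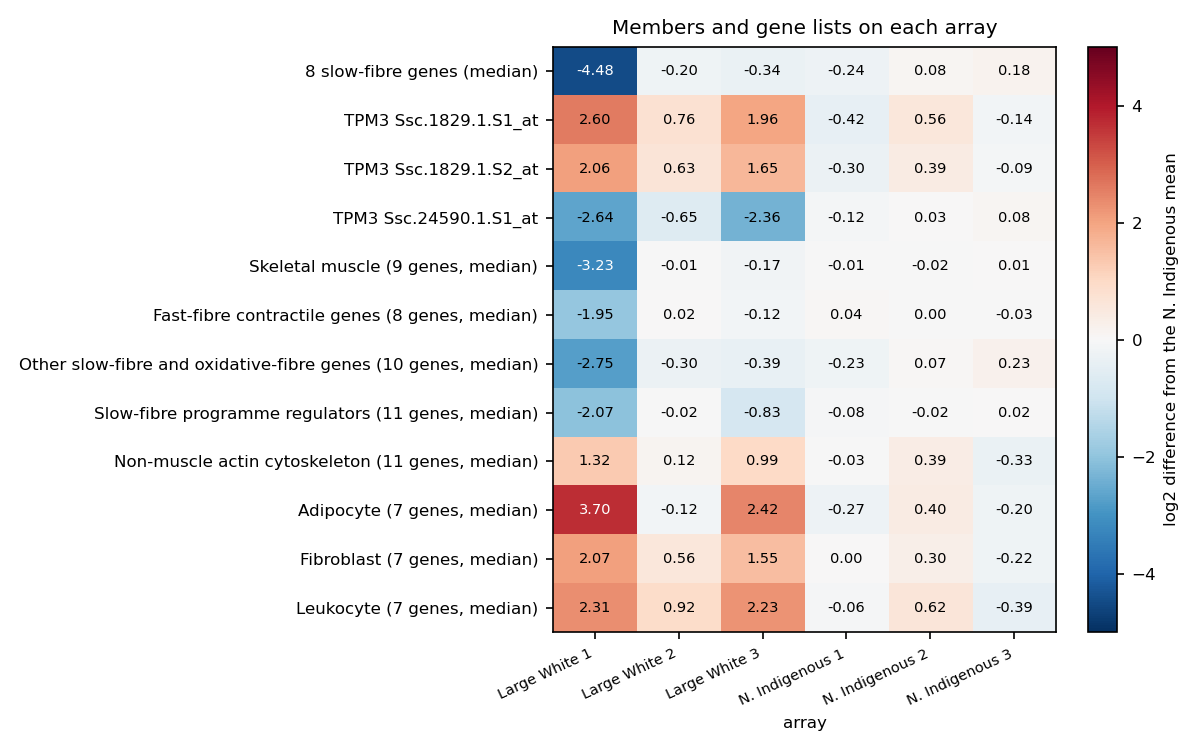
Log2 difference from the Northeastern Indigenous mean on each of the 6 arrays, as colours and numbers, for the median of the 8 slow-fibre genes, the 3 TPM3 probe sets and the medians of 8 gene lists. On Large White replicate 1 the slow-fibre and skeletal muscle rows are at -4.48 and -3.23, and on replicates 1 and 3 the first 2 TPM3 probe sets and the fibroblast and leukocyte rows lie between 1.55 and 2.60.

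Other genes of slow and oxidative fibres differed less uniformly than the 8. Of 16 listed, 10 were measured and 9 tested, 8 had a positive difference, against 55.8% of all probe sets tested, and the median was 0.47. It was 0.53 without Large White replicate 1 and 0.33 without replicates 1 and 3 together, with 8 of 9 positive in each. Over all probe sets tested the positive shares were 56.5% and 49.6%, respectively. SLN, sarcolipin, a regulator of the calcium pump, read 13.77, 15.15 and 15.14 against 15.14, 15.16 and 15.15. It ranked among the 19 brightest probe sets on every array but Large White replicate 1, where quantile normalization leaves little room to differ. As deposited, its intensity was 10379, 48912 and 26209 in Large White and 42639, 42562 and 40055 in Northeastern Indigenous boars. FABP3, which carries fatty acids in muscle, differed by 0.12 ± 0.41, CRYAB, a small heat shock protein, by 0.30 ± 0.17 and MYBPC1, the slow myosin-binding protein, by 2.28 ± 1.14 (SE). At an unadjusted p under 0.05 there were HSPB6 (1.99 ± 0.63) and LMCD1 (1.52 ± 0.64), both positive, against 8.82% of all probe sets in that direction. Without Large White replicate 1 the difference was 1.26 for HSPB6, 0.84 for LMCD1, 0.84 for MYBPC1 and 0.53 for FABP3.

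Regulators of the slow-fibre programme include calcineurin, which carries the calcium signal of slow motor activity, and the MEF2 factors. Of 22 listed, 11 were measured and 10 tested, 9 had a positive difference, against 55.8% of all probe sets tested, and the median was 0.97. This median was 0.38 without Large White replicate 1, with 7 of 10 positive, against 56.5% of all probe sets tested. Without replicates 1 and 3 together it was -0.01, with 5 of 10 positive, against 49.6%. PPP3CB and PPP3CA, catalytic subunits of calcineurin, differed by 1.09 ± 0.58 and 0.31 ± 0.29, MEF2A by 0.92 ± 0.44 and RCAN1, an inhibitor of calcineurin, by -0.35 ± 0.38 (SE). PPARGC1A, the coactivator of mitochondrial genes, was the single regulator with an unadjusted p under 0.05, at 2.71 ± 1.09 (adjusted p = 0.25 in limma), which makes 1 of 10 against 8.82% of all probe sets. It read 4.03, 8.80 and 7.09 in Large White and 9.28, 8.94 and 9.84 in Northeastern Indigenous boars, and the difference was 1.41 without Large White replicate 1. For PPP3CB, MEF2A, PPP3CA and RCAN1 the difference without that array was 0.40, 0.48, 0.01 and -0.10. On Large White replicates 1, 2 and 3 the median of the regulators stood at -2.07, -0.02 and -0.83. No gene of the oxidative-fibre or regulator lists had an adjusted p under 0.05 in limma.

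The genes most like MYH7 and TPM3 were found by the root mean square difference between centred 6-array profiles, over 5293 named genes. Nearest to MYH7 was TNNI1, at 0.17 log2 units, followed by COX8H (0.18), PRKAA2 (0.19), POPDC3 (0.20) and SMPX (0.20). Nearest to the brightest TPM3 probe set were PDGFRL (0.09), SLA-DRB1 (0.11), CD81 (0.12), FTL (0.13) and SEC61A1 (0.13). No slow-fibre gene was among these 5, which was fixed by the opposite deviations on Large White replicate 1 and is no further result.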

How the data were processed

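Total RNA of each muscle sample was made into biotin-labelled cRNA and hybridized to 1 array, per the labels' protocols. Each value the authors deposited is a linear intensity of 1 probe set. The software behind it is not given in the sources used here, and the mean without the lowest and highest 2% was 499.8 to 499.9 on every array. After 124 control probe sets were left out, log2 intensities were quantile normalized, since array medians spanned 0.35. Those whose mean log2 intensity reached the 40th percentile were tested with limma 3.58.1 in R 4.3.3 (lmFit, eBayes with an intensity trend, two-sided), and all 15 probe sets described passed. The fit was also run on simulated data, with independent normal values and the same spread in both breeds. The spread of the breeds was unequal in the real data, so nothing is read from that run here. Names came from the platform annotation. A gene in a list was read by its brightest probe set. No genome build is named, so no coordinates are given.

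The genes described, the lists and the tests were chosen with earlier results of these data known. Named genes were all 9 members, up to 4 of the brightest measured genes per related list, and the 5 genes nearest in profile to MYH7 and to TPM3, leaving out LOC and clone names; others are marked where named, or were named to spell out a small count. Alternatives varied scaling, filter, offset, variance prior, replicate block, probe set choice and the arrays used.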

Additional observations from a re-analysis of the deposited data

How the results depend on the processing

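The count of 0 probe sets called by limma at an adjusted p under 0.05 (2706 at an unadjusted p under 0.05) held as deposited, without a filter, under the 60th percentile filter, with an offset of 50, without the trend and with robust eBayes. It was 1 with arrays centred on their medians and 0 to 4425 when 1 array was left out, 4425 without Large White replicate 2. The median of the 8 slow-fibre genes ranged from 0.34 to 2.50 when 1 array was left out, and TPM3 relative to them from -4.23 to -1.54. The latter was -0.99 without Large White replicates 1 and 3 together, and 0.15 with TPM3 read by Ssc.24590.1.S1_at, an alternative chosen after seeing the data. For TNNI1 the difference was -0.00014 without those 2 arrays. The scaling moved the median over all probe sets from 0.10 to -0.01 as deposited and 0.13 with median centring. With the replicate number as a block the count of calls was 0 (2109 at an unadjusted p under 0.05) and the slow-fibre median 1.69. Same-numbered animals did not deviate together (correlations of -0.02, -0.16 and -0.11). With 3 animals a breed this cannot exclude a pairing, which the labels do not state. In 5 alternatives (both filters, both variance priors and the replicate block) the differences themselves cannot change. Of the 150 single probe set values under the others, 144 kept their sign and their side of the threshold, 5 became called, all without Large White replicate 2, and 1 changed sign. The differences of listed genes without Large White replicate 1, and without replicates 1 and 3, were added after seeing the data.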

Other observations

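The third TPM3 probe set, Ssc.24590.1.S1_at, had other neighbours in profile than MYH7 and the other TPM3 probe sets. By the same root mean square difference over the 6 arrays, a look added after its values were seen, the nearest genes were SLC25A11, a mitochondrial carrier, at 0.15 log2 units, MAP1LC3A (0.20), NTMT1 (0.20), COQ9, which serves coenzyme Q synthesis (0.22), and ECSIT (0.22). For Ssc.1829.1.S1_at they were SRI (0.11), GMFG (0.12), OAF (0.15), FOLR1 (0.16) and LCP1 (0.16). No gene was among the nearest 5 of more than 1 TPM3 probe set. For the third probe set this was fixed by its opposite deviations and is no further result. The other 2 probe sets share their sign, and the breeds overlapped in their difference on the same array.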
